A study of Mus musculus with 4 samples.

Results

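Satellite cells with high immediate-early genes were taken as barcodes with 1000 to 5000 detected genes, at most 8% mitochondrial UMIs and at least 1 *Pax7* UMI. They carried no UMI of *Myog*, *Top2a*, *Cdh5*, *Sox10* or *Ptprc*, at most 1 *Rgs5* UMI, and at least 100 UMIs of *Fos*, *Junb* and *Jund* together per 10000 UMIs of the cell. The rule found 9143 cells among 13924 satellite cells that passed the same gates and 27425 barcodes in all. Since the cells were picked on these transcripts, their levels describe the choice and are not tested. The study sequenced FACS-sorted satellite cells, the stem cells of skeletal muscle, from healthy mice and from 2 mouse models of Duchenne muscular dystrophy. Each of the 4 strains gave 1 droplet library from the lower hindlimb muscles of 2 mice, so every interval below covers counting error only and no difference between strains has a replicate check.

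The B10 library came from mice aged 15 weeks of the strain labelled C57/Bl10ScsSn, which the study writes as C57BL/10ScSn. The *mdx* library came from C57BL/10ScSn-Dmdmdx mice aged 11 weeks, which lack dystrophin through a mutation of *Dmd*. The DBA library came from DBA/2 mice aged 13 weeks, and the D2-*mdx* library from D2.B10-Dmdmdx mice aged 14 weeks, which carry the same mutation on the other background. These are the ages in the sample labels, and the oldest exceed the range that the study's methods give for its adult mice. By the labels age differed with strain, and its part cannot be told apart. All cells had been released with collagenase B and dispase II on a heated dissociator. They were sorted as positive for α7-integrin and VCAM1 and negative for Cd11b, Sca1, Cd45 and Cd31. All 4 libraries were made from dissociated muscle, so transcript levels before it were not measured. Levels are given as CPM, the UMIs of a gene per 1000000 UMIs summed over the cells of a class, and as log2 ratios of 2 such levels. Unless libraries are named, 4 values stand in the order B10, *mdx*, DBA, D2-*mdx*, and 2 ratios between strains in the order *mdx*, D2-*mdx*.

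Immediate-early genes are transcribed within minutes of a stimulus, from factors already present in the cell and without new protein synthesis. Many encode transcription factors, among them the Fos and Jun proteins that pair to form AP-1, and others encode proteins that end the response by destroying mRNA or by blocking kinases and cytokine receptors. In satellite cells they are known to be induced by muscle injury and also by the enzymatic isolation of the cells.

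The high cells made up 64.1% of gated satellite cells in B10 (2865 of 4473, exact binomial 95% interval 62.6 to 65.5%) and 62.1% in *mdx* (2409 of 3880, 60.5 to 63.6%). The share was 63.0% in DBA (1631 of 2587, 61.2 to 64.9%) and 75% in D2-*mdx* (2238 of 2984, 73.4 to 76.5%). D2-*mdx* thus held the highest share, and the intervals of the other 3 libraries overlapped. The gates left out unlike parts of the libraries. Among barcodes within the gene and mitochondrial limits, 3.55%, 29.7%, 15.4% and 33.0% had no *Pax7* UMI. Those with 2 or more *Rgs5* UMIs were 2.71%, 12.7%, 17.6% and 22.8%. The part of these gates in the shares was not tested. The median sum of the 3 rule genes in high cells was 227, 271, 190 and 286 UMIs per 10000. *Fos* gave 52.1 to 56.1% of this sum. The lowest bin, below 20 per 10000, held 9.95 to 15.1% of cells, and the cells on both sides of the threshold formed a continuous range of values. Whether high and low cells are separate populations was not tested. Between 90 and 100 per 10000 lay 106, 76, 82 and 43 cells, and between 100 and 110 lay 111, 75, 79 and 45. In these narrow bands *Atf3* was 266 CPM just below and 184 just above the threshold in B10, 219 and 223 in *mdx*, 69.0 and 100.0 in DBA, and 199 and 165 in D2-*mdx*.

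**Figure D1:**
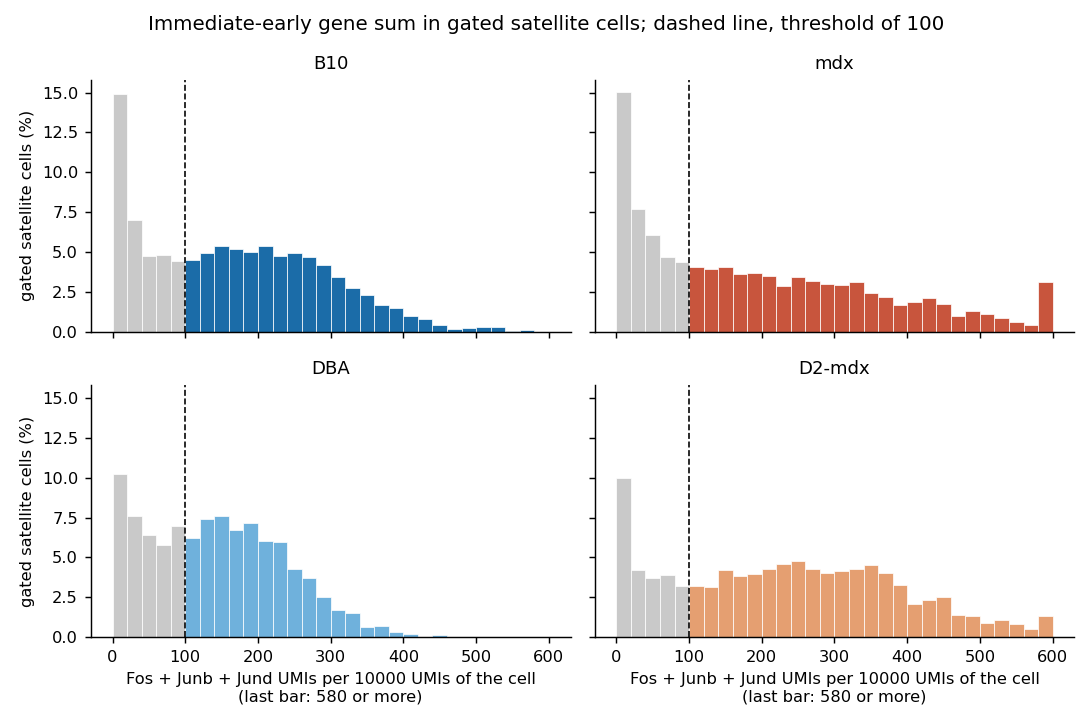
Histograms of the summed *Fos*, *Junb* and *Jund* UMIs per 10000 UMIs (x axis, bins of 20, last bar 580 or more) over the gated satellite cells of each library (y axis, percent of cells), with the threshold of 100 as a dashed line. Coloured bars, the high cells, hold 64.1% of the cells, 62.1%, 63.0% and 75%.

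The high cells held 27628424, 17523069, 18044789 and 14915855 UMIs. Their median depth was 9035 UMIs in B10 against 7322.5 in the cells below the threshold, 6460 against 7589 in *mdx*, 10270 against 10159.5 in DBA and 5853.5 against 7227 in D2-*mdx*. High cells were thus deeper in B10 and shallower in both dystrophin-deficient libraries. The median mitochondrial share was lower in high than in low cells of each library, at 3.74% against 4.69% in B10, 2.73% against 3.53% in *mdx*, 3.54% against 3.94% in DBA and 3.18% against 3.50% in D2-*mdx*. The part of depth and mitochondrial share in the differences below was not tested beyond the thinned and restricted sets named with them. Pairs of libraries shared 61 barcode sequences in all, 8 of them between high cells.

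*Pax7*, the transcription factor that defines satellite cells, was required by the rule and so does not check the label. It stood at 936, 585, 759 and 647 CPM in high cells. Of markers outside the rule, *Myf5*, an early myogenic factor, stood at 472, 524, 431 and 456, and *Vcam1*, the sorted adhesion receptor, at 380, 597, 340 and 622. Endothelial *Cdh5*, glial *Sox10* and white blood cell *Ptprc* were at 0 by the rule, and the summed level of 5 markers for each of these types stayed at or below 36.9 CPM in high cells of every library. The 6 pericyte markers summed to 18.7, 30.8, 26.9 and 52.4, with *Rgs5* the most abundant. The fibroblast or tenocyte list summed to 5.07, 35.4, 8.37 and 68.2, most of it *Dcn*, and in the low cells of D2-*mdx* to 246. The 5 myofibre markers summed to 26.7, 40.4, 28.0 and 259, with *Acta1* the most abundant in D2-*mdx* at 86.9. The part of these other cells in the results was not tested.

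Of 7370 genes with at least 10 CPM in high or low cells of every library, 54 were 2-fold or more higher in high cells of all 4 libraries, 0.733% of those measured. None was 2-fold or more lower in all 4 (0%). With the weaker condition that the counting interval lay above 0 in all 4 libraries, 240 genes were higher (3.26%), and 1097 were lower with intervals below 0 (14.9%). The median gene was lower in high cells, by a log2 ratio of -0.16, -0.14, -0.12 and -0.10. TMM library sizes, which centre the bulk of genes near 0 by construction, gave 0.03, 0.01, 0.01 and 0.02. Without the 3 rule genes, the other 51 held 4.89% of all UMIs in high cells of B10 against 1.17% in low cells, 5.30% against 1.17% in *mdx*, 3.88% against 1.23% in DBA and 4.73% against 1.01% in D2-*mdx*. When cells were instead picked on one random portion of their UMIs and measured on the remainder, 49 genes passed in all 4 libraries, 47 of them among the 54.

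Promoters of 5 of these genes, *Fos* and *Junb* of the rule and 3 outside it, are shown as examples chosen because they hold the same short motif. The sequences are RefSeq windows (GRCm38.p6), each the 250 bases before the start site, 5′ to 3′ on the gene's strand. *Fos* lies at chr12:85473640-85473889 on the plus strand, *Junb* at chr8:84978749-84978998 on the minus strand and *Atf3* at chr1:191183334-191183583 on the minus strand. *Nr4a1* lies at chr15:101266596-101266845 on the plus strand and *Btg2* at chr1:134079156-134079405 on the minus strand. Capitals mark TGACG or its reverse complement, the core of the cAMP response element, and TATAAA.
Fos: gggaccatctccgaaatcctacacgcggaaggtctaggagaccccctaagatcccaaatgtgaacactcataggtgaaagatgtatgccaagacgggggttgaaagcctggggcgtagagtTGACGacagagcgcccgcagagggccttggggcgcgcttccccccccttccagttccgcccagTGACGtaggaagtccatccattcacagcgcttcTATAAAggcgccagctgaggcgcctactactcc
Junb: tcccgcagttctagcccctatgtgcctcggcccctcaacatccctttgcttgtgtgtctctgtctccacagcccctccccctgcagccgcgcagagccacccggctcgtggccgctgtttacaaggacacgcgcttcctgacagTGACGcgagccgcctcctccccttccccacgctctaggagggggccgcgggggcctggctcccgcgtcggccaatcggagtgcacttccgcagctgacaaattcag
Atf3: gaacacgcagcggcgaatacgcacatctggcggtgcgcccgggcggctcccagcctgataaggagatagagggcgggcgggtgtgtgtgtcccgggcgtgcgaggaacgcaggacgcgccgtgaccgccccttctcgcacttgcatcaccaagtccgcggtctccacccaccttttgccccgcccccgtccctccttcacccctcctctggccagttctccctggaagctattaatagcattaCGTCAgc
Nr4a1: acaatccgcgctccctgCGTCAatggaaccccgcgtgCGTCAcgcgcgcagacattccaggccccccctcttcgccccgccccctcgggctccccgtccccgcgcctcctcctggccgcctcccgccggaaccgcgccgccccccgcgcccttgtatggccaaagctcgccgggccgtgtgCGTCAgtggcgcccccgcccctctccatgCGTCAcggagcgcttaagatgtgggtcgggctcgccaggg
Btg2: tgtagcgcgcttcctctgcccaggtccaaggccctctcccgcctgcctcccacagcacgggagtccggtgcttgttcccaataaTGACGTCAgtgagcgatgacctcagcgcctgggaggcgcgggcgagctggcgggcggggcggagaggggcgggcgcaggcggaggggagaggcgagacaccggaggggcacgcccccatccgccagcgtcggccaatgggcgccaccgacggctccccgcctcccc

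*Fos* holds TGACG at -129 to -125 and at -66 to -62 from the start site and TATAAA at -33 to -28, *Junb* holds TGACG at -106 to -102, and *Atf3* holds it at -7 to -3. *Nr4a1* holds 4 copies on the reverse strand, at -233, -213, -69 and -40, and *Btg2* the whole palindrome TGACGTCA at -166 to -159, which contains TGACG on both strands. Of the 51 genes outside the rule, 38 had a window in the RefSeq table, with 51 windows of 300 bases that reach 50 bases past the start. TGACG on either strand was in 27 of these 51 windows (52.9%) and in 20.8% of all 32851 windows, and the full TGACGTCA was in 4 (7.84%) and in 1.79%. Some genes have several windows, and 3 overlapping windows of *Egr2* hold the same TGACG sites. Counted by gene and with the rule genes included, 23 of 41 genes with a window held TGACG. The CArG box, the site of serum response factor, was in 5 windows (9.80%) against 1.63% of all. They belonged to 2 genes, with 4 windows of *Egr2*, of which 3 overlap and share 1 site, and the *Zfp36* window, which holds CCATAAAAGG at -58 to -49. GGGCGG was in 76.5% against 35.7%, and the AP-1 site TGANTCA in 3.92% against 7.81%. The windows were not matched for base composition, and a match describes letters in the window only.

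All 6 measured AP-1 genes outside the rule were higher in high cells of all 4 libraries, 4 of them by 2-fold or more, beside 0.733% of all genes. *Fos* stood at 12103, 14782, 10223 and 15686 CPM in high cells and at 1797, 1800, 2192 and 1998 in low cells. *Junb* stood at 5219, 5839, 4557 and 6680 in high cells and *Jund* at 5800, 6651, 4847 and 5573. These 3 genes chose the cells. *Jun*, the partner of Fos proteins in AP-1, was not part of the rule and stood at 10095, 10823, 10630 and 11264 in high cells against 2843, 2339, 3784 and 2304 in low cells. Its high-cell levels lay within 10095 to 11264, above every low-cell level. *Fosb*, a marker of these cells, stood at 4513, 2791, 3993 and 3406 in high cells and was lowest in *mdx*. *Atf3*, a stress-induced partner and repressor within the same protein family, showed the largest difference of all measured genes by the rule of the smallest ratio. It stood at 665, 915, 291 and 701 CPM, against 61.8, 90.2, 25.3 and 89.4 in low cells. The log2 ratios were 3.43 (95% counting interval 3.32 to 3.53), 3.34 (3.26 to 3.43), 3.52 (3.35 to 3.71) and 2.97 (2.85 to 3.09). Without the 3 rule genes, the AP-1 list had medians of 2.00, 2.27, 1.38 and 2.39, beside the medians of all genes above. *Fosl2* and *Mafk* were higher with intervals above 0 in each library but under 2-fold in some, *Fosl2* with 0.98 in B10 and 0.35 in DBA and *Mafk* with 0.88 in DBA. *Fosl1* was under the minimum level, at 4.17 CPM in high and 14.7 in low cells of *mdx*. It went the other way, with ratios of -1.47, -1.82, -2.24 and -2.45, and only the B10 interval (-3.13 to 0.12) held 0.

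**Figure D2:**
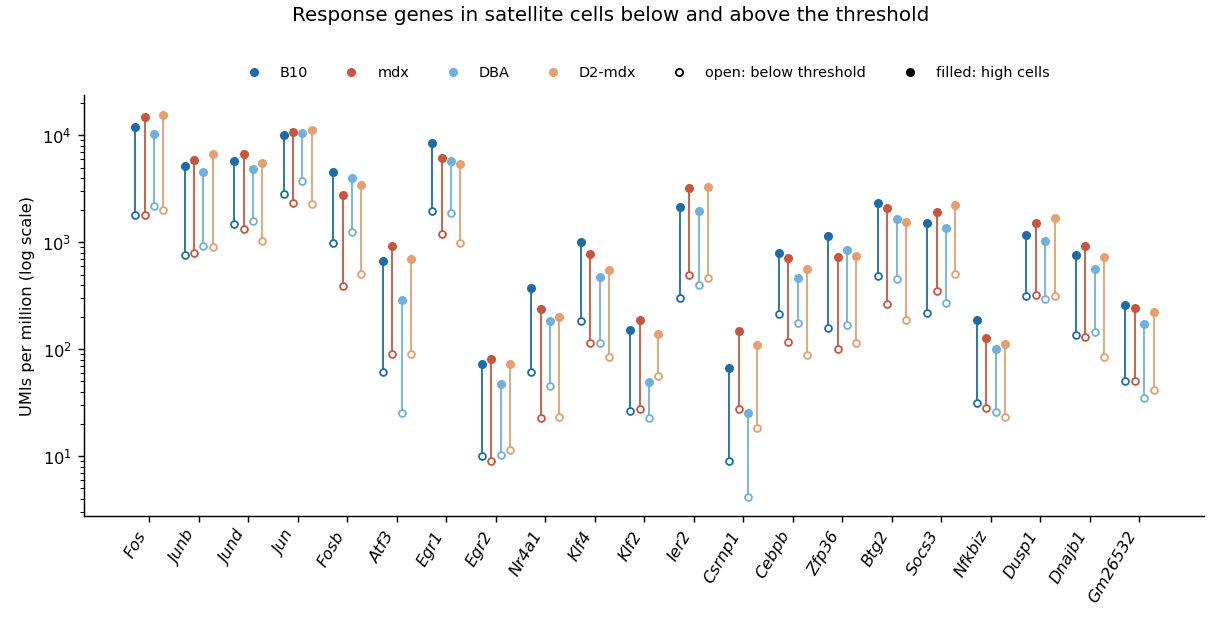
Levels of 21 response genes (y axis, CPM on a log scale) in high cells (filled circles) and in satellite cells below the threshold (open circles) of B10, *mdx*, DBA and D2-*mdx* libraries, 1 library per strain. Every filled circle lies above its open circle by 2-fold or more.

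Among other immediate-early transcription factors, 14 of 19 listed genes were measured and 11 of them were 2-fold or more higher in all 4 libraries, beside 0.733% of all genes. *Egr1*, a zinc finger factor, stood at 8428, 6109, 5781 and 5382 CPM in high cells and at 1966, 1195, 1879 and 983 in low cells. Its paralog *Egr2*, also a zinc finger factor, stood at 72.3, 81.1, 46.9 and 73.4 against 9.99, 9.002, 10.2 and 11.3. Both were at least 2-fold higher in high cells of each library. *Nr4a1*, an orphan nuclear receptor, stood at 373, 237, 182 and 200 against 61.9, 22.7, 45.5 and 23.4, with log2 ratios of 2.59 (2.49 to 2.70), 3.38 (3.21 to 3.56) and 2.00 (1.86 to 2.14) in the first 3 libraries and an interval of 2.87 to 3.34 in D2-*mdx*. Its ratio was larger in both dystrophin-deficient libraries, where its low-cell level was the lower one. The related *Nr4a3* stayed under the minimum, at 5.63 to 13.1 in high cells. *Klf4*, a Krüppel-like factor and marker of these cells, stood at 998, 778, 475 and 552 against 185, 114, 114 and 84.6. *Csrnp1*, a nuclear factor induced by growth signals, stood at 66.6, 149, 25.1 and 108 against 8.98, 27.4, 4.17 and 18.2. Its levels were higher in the dystrophin-deficient libraries in both classes. *Ier2*, an immediate-early nuclear protein, stood at 2136, 3256, 1965 and 3292 against 299, 500, 402 and 459. *Klf10* was the exception among those measured, with ratios of -0.40, -0.08, -0.38 and -0.25.

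Of the genes listed as feedback regulators, 11 of 26 measured were 2-fold or more higher in all 4 libraries, beside 0.733% of all genes. With intervals above 0 in all 4 libraries, 23 of 26 were higher, beside 3.26% of all genes. *Zfp36*, which binds AU-rich mRNA and speeds its decay, stood at 1155, 730, 856 and 738 CPM, against 157, 100.0, 169 and 114 in low cells. *Btg2*, an antiproliferative factor that recruits deadenylases, stood at 2313, 2095, 1670 and 1538 against 489, 264, 455 and 188. *Socs3*, an inhibitor of cytokine receptor signalling, stood at 1533, 1908, 1369 and 2231 against 217, 348, 273 and 508. *Dusp1*, a MAP kinase phosphatase, stood at 1169, 1524, 1019 and 1685 against 315, 320, 298 and 315. *Nfkbia* and *Nfkbiz*, regulators of NF-κB, were both 2-fold or more higher throughout, and *Nfkbia* differed most in B10, with ratios of 2.10, 1.19, 1.45 and 1.15. *Gadd45a*, *Gadd45b*, *Ppp1r15a*, *Trib1* and *Ier3* also passed 2-fold in each library. *Rgs2* did not, with ratios of -0.18, 0.55, -0.31 and 0.20. The list medians were 1.15, 1.36, 0.84 and 1.34.

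Of 19 measured heat shock genes, 12 were higher with intervals above 0 in all 4 libraries, beside 3.26% of all genes. The 2 that were lower by the same condition are no larger a share than the 14.9% of all genes. *Dnajb1*, a co-chaperone of Hsp70, stood at 761, 921, 567 and 728 CPM in high cells against 137, 130, 145 and 85.2 in low cells, with log2 ratios of 2.48, 2.83, 1.97 and 3.09. *Hspb1* and *Hsph1* were the other 2 of 19 measured heat shock genes past 2-fold in all 4 libraries, beside 0.733% of all genes. *Hspa1a*, an inducible Hsp70 gene, stood at 3059, 3520, 2481 and 2295 against 1246, 1047, 1307 and 635, and its ratio of 0.92 in DBA missed 2-fold. Reads of *Hspa1a* and *Hspa1b* are uncertain because the genes are near-identical. The cytosolic *Hspa4* was lower in each library, also relative to the median gene, from which it differed by -0.11, -0.36, -0.07 and -0.38. The mitochondrial chaperone *Hspd1* differed from the median gene by 0.13, -0.23, -0.02 and -0.60. *Hspa9* was 1 of the 2 genes lower by the interval condition, with ratios of -0.18, -0.33, -0.18 and -0.37. The list as a whole had medians of 0.51, 0.32, 0.25 and 0.27. *Dnajb1* had no UMI in 30.2%, 29.3%, 30.0% and 33.8% of high cells, and *Hspa1a* none in 11.4%, 9.17%, 11.5% and 13.7%.

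Of 17 measured activation and commitment genes, only *Id1* and *Id3*, inhibitors of bHLH factors and targets of BMP signalling, passed 2-fold in all 4 libraries, beside 0.733% of all genes. *Id3* stood at 1212, 3412, 652 and 2376 CPM, against 459, 1028, 237 and 623 in low cells. *Myod1*, which drives commitment, was lower with ratios of -0.39, -0.17, -0.17 and -0.34, and so was the cyclin gene *Ccnd1*, with -0.33, -0.61, -0.63 and -0.69. Relative to the median gene *Myod1* was -0.03 in *mdx* and -0.05 in DBA. With intervals apart from 0 in all 4 libraries, 4 of the 17 were higher and 6 lower, beside 3.26% and 14.9% of all genes. The list had medians of -0.04, -0.17, -0.06 and -0.32, beside -0.16, -0.14, -0.12 and -0.10 for all genes, so that in D2-*mdx* it lay further below 0. Of 9 measured cytokine and growth factor genes 1 passed 2-fold in each library, *Cxcl1*, a neutrophil chemokine, at 146, 272, 108 and 251 CPM against 25.5, 64.8, 30.8 and 68.9. *Il6* and *Lif*, cytokines of muscle repair, were at most 2.22 CPM in every class, below the minimum.

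Genes outside these lists that passed 2-fold in all 4 libraries included *Mt1*, a metallothionein, at 1834, 3265, 771 and 2122 CPM against 236, 835, 203 and 719 in low cells. *Cyr61*, a matricellular target of YAP, stood at 376, 832, 200 and 700 against 107, 262, 66.9 and 214. *Gm26532* is a long noncoding RNA at chr8:84208920-84209609 on the plus strand (GENCODE M21), and its annotation begins where that of *Mir24-2* ends, downstream of *Mir23a* and *Mir27a*. It stood at 259, 245, 171 and 224 against 50.2, 50.1, 34.9 and 41.6, and its log2 ratios of 2.37 (2.25 to 2.48), 2.29 (2.17 to 2.41), 2.29 (2.14 to 2.45) and 2.43 (2.25 to 2.61) overlapped across all strains. The miRNAs themselves were not measured.

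The genes lowest in high cells differed less. *Lamb1*, the laminin β1 chain of basement membranes, stood at 8.94, 43.9, 20.3 and 36.9 CPM, against 17.2, 85.3, 33.9 and 77.6 in low cells. Its log2 ratios of -0.94 (-1.21 to -0.67), -0.96 (-1.09 to -0.82), -0.74 (-0.95 to -0.53) and -1.07 (-1.25 to -0.90) remained negative relative to the median gene, at -0.79, -0.81, -0.62 and -0.98. *Ryr1*, the calcium release channel of muscle, had ratios of -0.53, -0.95, -0.70 and -0.66, and *Slc1a5*, a glutamine transporter, -0.51, -0.81, -0.52 and -1.04. The remaining 7 of the lowest 10 were *Zfp322a*, *Mettl21a*, *Gm3336*, *B230217C12Rik*, *Cops7b*, *AY036118* and *Ttc13*. *Gm3336* ranged from -0.55 in *mdx* to -3.00 in DBA, at 2.88 to 8.28 CPM in high cells.

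Within the satellite cells *Atf3*, *Nr4a1*, *Btg2* and *Id3* were higher at each further step of the rule-gene sum in every library. *Atf3* went from 17.7 CPM in B10 cells below 25 per 10000 to 300 between 100 and 150 and to 971 at 300 or more, and from 22.5 to 338 and 1437 in *mdx*. *Btg2* went from 204 to 3118, from 107 to 3369, from 172 to 2672 and from 77.0 to 2192 between the lowest and the highest step. *Ccnd1* peaked at 384 between 50 and 100 in B10 and was 88.0 at 300 or more, and at that top step it was also the lowest in *mdx* (74.8), DBA (157) and D2-*mdx* (188). *Gpx3*, a secreted peroxidase of quiescent satellite cells, went from 511 to 1340 in *mdx* and from 404 to 1200 in D2-*mdx*, while in B10 it was 1967 at the lowest step and 2029 at the highest. *Postn*, a matricellular protein, went the other way in the dystrophin-deficient libraries, from 245 to 7.59 in *mdx* and from 128 to 5.38 in D2-*mdx*, and stayed at or below 8.71 in the controls. Depth moved along the same steps, with a median of 5715 UMIs at the top step in *mdx* and 5296.5 in D2-*mdx*.

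**Figure D3:**
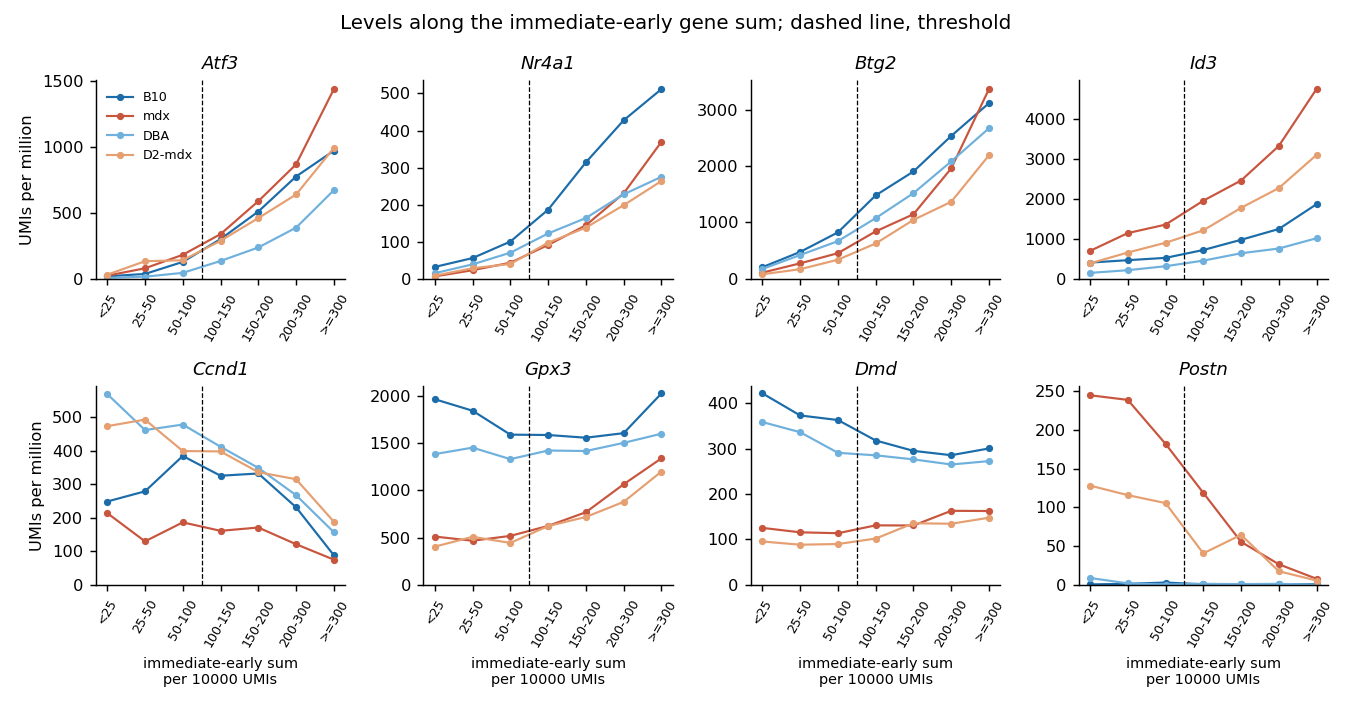
Levels of 8 genes (y axes, CPM) in satellite cells grouped by their summed *Fos*, *Junb* and *Jund* UMIs per 10000 (x axes, 7 steps), with 1 line per library and the threshold dashed. *Atf3*, *Nr4a1*, *Btg2* and *Id3* climb with the steps, *Ccnd1* is lowest at the top step, and *Postn* is seen in *mdx* and D2-*mdx* and is lowest at their top step.

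Among barcodes that carried UMIs of the genes the rule bars, lower shares passed the threshold in each class of each library, and the differences were not tested. Of barcodes within the same limits and with 2 or more *Rgs5* UMIs, a pericyte marker, 27.9% (exact interval 20.4 to 36.5%), 31.4% (28.3 to 34.7%), 20.1% (16.9 to 23.5%) and 34.2% (31.7 to 36.8%) passed. All of these lay below the satellite cell shares of the same library. With *Cdh5*, an endothelial cadherin, the shares were 14.3%, 20.1%, 20% and 26.7%, over 21, 353, 15 and 176 barcodes. With *Top2a*, a marker of cycling cells, they were 46.2% (26.6 to 66.6%), 23.2%, 14.7% and 27.6%. Barcodes with *Myog*, the factor of differentiating myocytes, gave 51.6% in B10 (33.1 to 69.8%) and 28.5%, 41.3% and 37.9% in the other libraries. In B10 the intervals of the *Top2a* and *Myog* barcodes reached the satellite cell share, and so did that of the 2 barcodes with *Ptprc*, a white blood cell marker, of which 0 passed (0 to 84.2%). A barcode can fall in several of these classes, and free RNA in droplets adds to all of them, so a share is not a share of pure cell types. Depth differed too, with a median of 13126 UMIs for *Top2a* barcodes of *mdx* against 6740.5 for its gated satellite cells, and its part was not tested.

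**Figure D4:**
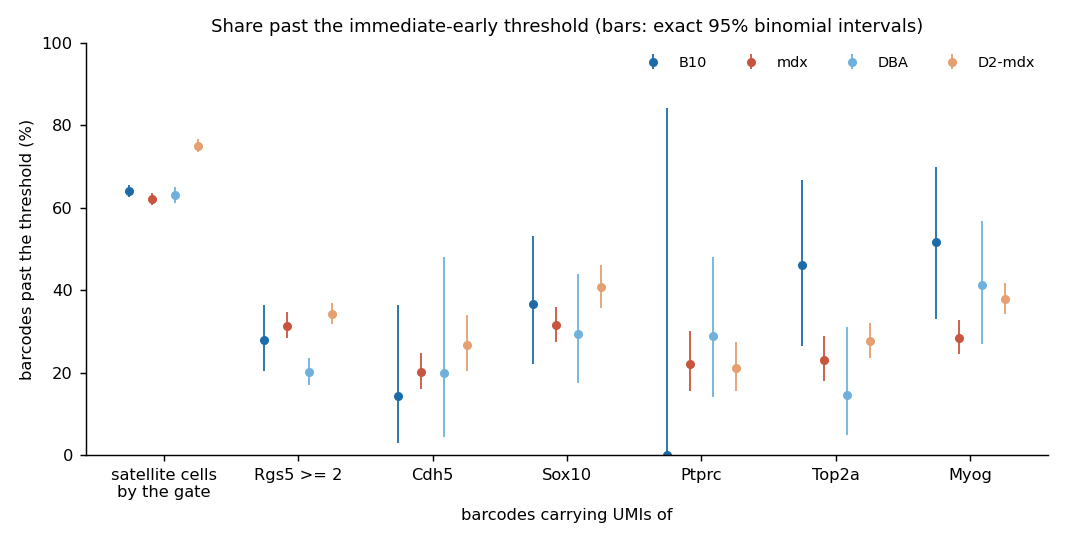
Share of barcodes past 100 *Fos*, *Junb* and *Jund* UMIs per 10000 (y axis, percent) among gated satellite cells and among barcodes that carry UMIs of each gene the rule bars (x axis), with exact 95% binomial intervals as bars and 1 colour per library. The gated satellite cells sit at 62.1 to 75%, and the barcodes with 2 or more *Rgs5* UMIs at 20.1 to 34.2%.

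The quiescence and niche genes had different high over low ratios in control and in dystrophin-deficient libraries, a difference that was not tested. Of 26 measured genes 0 were 2-fold or more higher in all 4 libraries, near the 0.733% of all genes. With intervals apart from 0 in all 4, *Pax7*, *Hes1* and *Sdc4* were higher and 5 genes lower, beside 3.26% and 14.9% of all genes. The median log2 ratio of high over low cells was -0.14 in B10 and -0.08 in DBA, near the median of all genes, but 0.27 in *mdx* and 0.38 in D2-*mdx*. With TMM library sizes the control medians turned positive, at 0.04 in B10 and 0.05 in DBA, beside 0.42 in *mdx* and 0.50 in D2-*mdx*. With cells thinned to 3000 UMIs the medians of these 2 libraries were 0.03 and 0.24, and as a mean over cells 0.11 and 0.21. *Gpx3* stood at 1679 CPM in high and 1803 in low cells of B10 and at 1464 and 1376 in DBA, but at 1022 against 503 in *mdx* and 945 against 439 in D2-*mdx*. *Chrdl2*, a secreted BMP antagonist of quiescent satellite cells, stood at 368 and 391 in B10 and 317 and 323 in DBA, but at 126 against 62.3 in *mdx* and 191 against 85.3 in D2-*mdx*. *Pax7*, a gate gene, had ratios of 0.07, 0.47, 0.25 and 0.66, and of 0.01, 0.21, 0.18 and 0.27 with cells thinned to 3000 UMIs. *Cdh15* and *Itga7*, adhesion molecules of satellite cells, were lower in each library. Relative to the median gene *Cdh15* stood at -0.04, -0.46, -0.08 and -0.22 and *Itga7* at -0.06, -0.41, -0.07 and -0.35, so both lay near it in the controls. *Vcam1* was lower too, but relative to the median gene it stood at 0.03 in B10 and at -0.05 to -0.08 elsewhere. *Nppc*, a natriuretic peptide, listed with the cytokines, had ratios of 0.20 and 0.33 in the controls and 1.76 and 1.84 in *mdx* and D2-*mdx*.

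**Figure D5:**
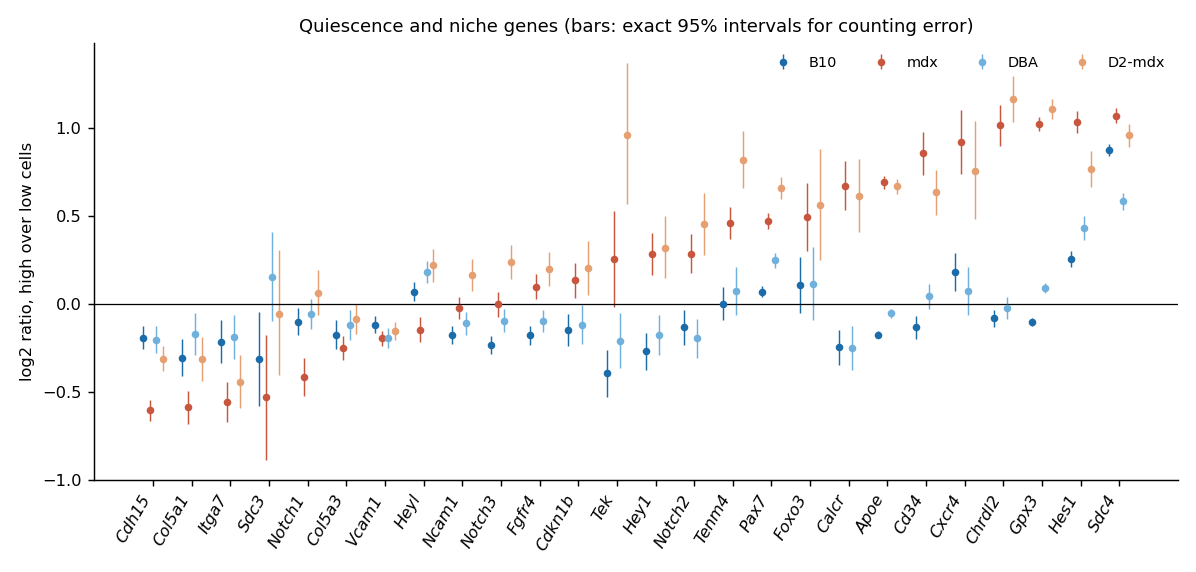
Log2 ratio of summed CPM in high over low cells (y axis) for 26 quiescence and niche genes (x axis, ordered by the *mdx* ratio), with 95% counting intervals as bars and 1 colour per library. *Gpx3* and *Chrdl2* lie above 1 in *mdx* and D2-*mdx* and within 0.11 of 0 in B10 and DBA.

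Matrix genes differed between high and low cells of the same 2 libraries. Of high cells, 18.2% in *mdx* and 11.1% in D2-*mdx* carried a UMI of *Postn* or *Mgp*, against 44.0% and 29.1% of low cells and at most 1.99% of either class in the controls. The list of matrix and DMD-enriched genes, below the matrix list, had medians of -0.21, -1.06, -0.12 and -1.16. *Cdkn1c*, a cell cycle inhibitor, stood at 255 in high and 833 in low cells of *mdx*, 100.1 and 410 in D2-*mdx* and between 19.4 and 20.3 in both classes of both controls. Without the cells that carried *Postn* or *Mgp*, the *Gpx3* ratio was 0.47 in *mdx* and 0.77 in D2-*mdx*, and the median of the niche list was 0.14 and 0.38. This setting was chosen after seeing the data.

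*Dmd*, the gene mutated in both models, was present in every class. It stood at 297 CPM in high and 390 in low cells of B10, 275 and 323 in DBA, 151 and 119 in *mdx* and 135 and 91.9 in D2-*mdx*. The ratio was -0.39 (-0.44 to -0.34) in B10 and -0.23 (-0.29 to -0.17) in DBA, and 0.34 (0.25 to 0.43) in *mdx* and 0.56 (0.43 to 0.69) in D2-*mdx*. The *mdx* ratio depended on the cells and on the weighting. It was -0.13 without the cells that carried *Postn* or *Mgp*, -0.04 with cells thinned to 3000 UMIs and -0.00 as a mean over cells. The D2-*mdx* ratio remained positive in these settings, at 0.34, 0.25 and 0.25. Of the 10 measured genes of the dystrophin complex 0 were past 2-fold in all 4 libraries, where 0.733% of all genes were, so this count says nothing particular of the complex.

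The last comparison set dystrophin-deficient against control libraries within the high cells, each dystrophin-deficient library over the control of its own background, and the 2 pairs share no library. Of 7950 genes measured, 160 were 2-fold or more higher in both backgrounds (2.01%) and 148 were 2-fold or more lower (1.86%). In the low cells these counts were 324 and 373 of 8300 genes measured. More low than high cells carried a *Postn* or *Mgp* UMI, 44.0% against 18.2% in *mdx* and 29.1% against 11.1% in D2-*mdx*. The part of these cells in the larger low-cell counts was not tested. Of the 160 higher genes, 140 also passed in low cells, 87.5% of the high-cell list and 43.2% of the low-cell list. Of the 148 lower genes 139 did, 93.9% and 37.3%. The genes that differed between strains in high cells thus mostly recurred in the low cells. High and low cells of a strain came from the same library, so this overlap is no independent check.

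*Dmd* itself differed by -0.98 (-1.04 to -0.92) between *mdx* and B10 and by -1.02 (-1.10 to -0.95) between D2-*mdx* and DBA. *Cdkn2a*, a senescence-associated cell cycle inhibitor, stood at 0.869, 56.9, 1.995 and 78.2 CPM, which gave log2 ratios of 6.03 (5.45 to 6.68) and 5.29 (4.82 to 5.81). *Col1a2*, a fibrillar collagen chain, stood at 9.63, 407, 11.9 and 214, and *Timp1*, an inhibitor of matrix proteases, at 0.869, 32.0, 1.496 and 34.3. *Ttn*, the giant sarcomere protein, stood at 3.66, 64.5, 3.71 and 41.0. *Postn*, *AI467606*, *Dpysl3*, *Cacng1*, *Tnfaip2*, *Lyz2*, *Sema3a*, *Ahnak2*, *Col8a1*, *Gpc3* and *Igfbp3* completed the 15 highest. *Lyz2* is abundant in macrophages and was 56.3 in D2-*mdx*, where the white blood cell markers summed to 32.8 with *Ptprc* at 0. The matrix list held 7 of 12 measured genes past 2-fold higher in both backgrounds, beside 2.01% of all genes. It includes genes that the study reported for its DMD-enriched cluster in these same libraries. The count therefore partly restates that choice and is not a test.

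Among the lowest genes, *Slc22a3*, an organic cation transporter, stood at 16.9, 0.171, 92.7 and 5.97 CPM, the *mdx* value from 3 UMIs, with ratios of -6.62 (-8.91 to -5.07) and -3.96 (-4.28 to -3.65). *Hlf*, a PAR bZIP factor, stood at 31.4, 2.80, 25.7 and 2.21. *Cdh4*, a cadherin, stood at 20.3, 2.45, 15.2 and 0.670, and *Clmp*, an adhesion molecule of cell junctions, at 99.8, 13.5, 129 and 8.51. *Gm13373*, *Mirg*, *Espnl*, *B830012L14Rik*, *Mgam* and *Abhd6* completed the 10 lowest. Of 12 measured cytokine and growth factor genes, 4 were past 2-fold lower in both backgrounds and 2 past 2-fold higher, beside 1.86% and 2.01% of all genes. The lower ones were *Vegfa* and *Igf1*, both secreted growth factors, with ratios of -2.22 and -1.91 and of -1.62 and -2.17, the chemokine gene *Ccl19* with -3.53 and -2.20, and *Nppc* with -1.56 and -1.13. The higher ones were *Tgfb1*, the gene of a fibrogenic cytokine, with 1.97 and 2.49, and *Hbegf*, the gene of an EGF receptor ligand, with 1.52 and 1.70.

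The response genes themselves differed unevenly between dystrophin-deficient and control libraries. Of the 6 measured AP-1 genes outside the rule 0 were past 2-fold in both backgrounds, near the 2.01% and 1.86% of all genes that were higher and lower. Their medians were 0.03 and 0.23 beside -0.04 and -0.04 for all genes. *Atf3* had ratios of 0.46 (0.43 to 0.49) and 1.27 (1.22 to 1.31), *Fosb* of -0.69 (-0.71 to -0.68) and -0.23 (-0.25 to -0.21), and *Egr1* of -0.46 and -0.10. *Nr4a1* went opposite ways, with -0.66 in *mdx* and 0.14 in D2-*mdx*. Of 15 other transcription factors measured here 3 were past 2-fold higher in both backgrounds, and of 28 feedback genes 5, beside 2.01% of all genes. They included *Csrnp1* (1.17 and 2.11), *Nfil3* (1.85 and 1.72) and *Ier5* (2.66 and 3.09) among the transcription factors, and *Gadd45g* (2.86 and 3.05), *Pim1* (1.58 and 1.54) and *Sertad1* (1.15 and 1.49) among the feedback genes. *Rgs2*, a regulator of G protein signalling, was the 1 feedback gene of 28 past 2-fold lower in both (-1.25 and -1.03), beside 1.86% of all genes. *Hspb1*, a small heat shock protein, stood at 710, 2321, 381 and 1004, and was the 1 heat shock gene of 19 past 2-fold in both, a count too small to set beside the 2.01% of all genes. Of 17 measured activation genes 3 were past 2-fold higher in both, namely *Id2*, *Id3* and *Cdk6*. *Id3* was higher by 1.49 and 1.87, and in *mdx* it was above its B10 level at each step of the rule-gene sum. The high-cell medians of the sum also differed between these libraries, as given above, and its part in these ratios was not tested.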

How the data were processed

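The authors deposited gene by barcode UMI count tables, 1 per strain, made with Cell Ranger 3.0.1 on mm10 according to the submitters' processing notes. These counts are whole UMIs and were used as deposited. B10 totalled 49191944 UMIs, *mdx* 67156373, DBA 43542853 and D2-*mdx* 75482888. The cells, gene lists and the rule for named genes were chosen with earlier results of these data known. Named genes were the rule genes, the markers, *Dmd*, the 15 highest and 10 lowest of each comparison by the smallest ratio in size, and list members by count with examples. Some genes that the rule names are not reported here.

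UMIs were summed over the high and over the low cells of a library and divided by their total (CPM). Genes needed 10 CPM in either class of each library, or in either library of each pair. Ratios carry 95% intervals from the exact binomial share of the pair of counts, which cover counting error only. A single library per strain allows no test, so none is reported. Doublets were kept in the cells and removed as an alternative, taking the highest Scrublet scores (scanpy 1.11.5) up to the number its expected rate gives. TMM sizes came from edgeR 4.0.16 and size factors from DESeq2 1.42.0, Python was 3.11.15. Alternatives were other thresholds, limits on cells and minimum levels, thinning to 3000 UMIs, means over cells, and selection on one portion of the UMIs. Gene positions are GENCODE M21.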

Additional observations from a re-analysis of the deposited data

Results flagged for a closer look

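*Dmd*, *Calcr* and *Hey1* had counting intervals on one side of 0 in both control libraries and on the other side in both dystrophin-deficient libraries. Relative to the median gene the ratios kept these signs, but not every interval stayed apart from it. The *Calcr* interval in B10 (-0.35 to -0.15) held the median gene (-0.16). The *Hey1* interval in DBA (-0.29 to -0.07) did too, with the median gene at -0.12. The difference between control and dystrophin-deficient libraries was not tested, since each strain has 1 library. *Dmd* was lower in high cells of B10 and DBA and higher in those of *mdx* and D2-*mdx*, and the mean log2 ratio of the dystrophin-deficient libraries exceeded that of the controls by 0.76. Its *mdx* ratio was -0.13 without the cells that carried *Postn* or *Mgp*. *Calcr*, the calcitonin receptor that holds satellite cells in quiescence, had ratios of -0.25, 0.67, -0.25 and 0.61 (B10, *mdx*, DBA, D2-*mdx*), a difference of 0.89. *Hey1*, a target of Notch signalling, had ratios of -0.27, 0.28, -0.18 and 0.32, a difference of 0.53. Without the cells that carried *Postn* or *Mgp*, *Calcr* stood at 0.25 in *mdx* and 0.38 in D2-*mdx*, and *Hey1* at 0.22 and 0.15. With cells thinned to 3000 UMIs, the ratios in *mdx* and D2-*mdx* were -0.04 and 0.25 for *Dmd*, 0.35 and 0.52 for *Calcr* and 0.12 and 0.25 for *Hey1*. As a mean over cells they were -0.00 and 0.25, 0.36 and 0.26, and 0.21 and 0.15.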

How the results depend on the processing

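No paired analysis was possible because the labels give each strain 1 library and no shared replicate numbers, and no replicate could be left out. The share of high cells moved with the threshold, to 69.6%, 67.6%, 71.5% and 79.0% (B10, *mdx*, DBA, D2-*mdx*) at 75 per 10000 and to 51.9%, 51.8%, 45.3% and 66.4% at 150. At most 5% mitochondrial UMIs gave 72.6%, 65.2%, 65.1% and 76.8%. Leaving out cells with a *Postn* or *Mgp* UMI, chosen after seeing the data, gave 70.5% in *mdx* and 79.0% in D2-*mdx*. D2-*mdx* kept the highest share in each of these. The 54 higher genes numbered 41 to 69 over the alternatives. The count of genes lower in all 4 libraries was 0, and became 1 at a threshold of 150 (*Gm3336*), with cells thinned to 3000 UMIs (*Lamb1*), against cells below 50 per 10000 (*Gm26615*, named after its value was seen) and without *Postn* or *Mgp* cells (*Gm3336*), and 40 with no minimum level. The counts between strains, 160 higher and 148 lower, were 52 and 53 at a minimum of 50 CPM and 722 and 616 with none, where low genes enter with few UMIs. The activation list median, averaged over libraries, turned from negative to 0.000262 with TMM sizes, and the cytokine list between strains to 0.00909 with no minimum level. With TMM sizes the niche list medians of B10 and DBA were 0.04 and 0.05.

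Genes near 10 CPM rest on fewer UMIs than more abundant genes, and a single library per strain leaves the spread between mice unknown.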

Other observations

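In B10, 4739 barcodes had under 1000 detected genes, with a median of 404 UMIs, of which 71.4% at the median were mitochondrial. Their UMIs together held 62.6 *Fos*, *Junb* and *Jund* UMIs per 10000. Haemoglobin transcripts were uneven, with the 4 erythrocyte markers at 23.3, 501, 488 and 271 CPM in high cells (B10, *mdx*, DBA, D2-*mdx*), against 26.9, 22.8, 12.2 and 784 in low cells.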
